A study of Mus musculus with 2 samples.

Results

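The extracellular adenosine pathway was followed through 10 genes in effector regulatory T cells (Treg cells) with and without a working copy of Nrn1, the gene of the cell-surface protein neuritin. The members were taken by symbol (Nt5e, Entpd1, Enpp1, Adora2a, Adora2b, Slc29a1, Ada, Adk, Pnp and Dpp4) from 46398 symbols, and each had a single row in both files. The study sequenced poly(A) RNA from 2 libraries, 1 per genotype: Nrn1+/- cells, called the heterozygous library below, and Nrn1-/- cells, called the null library. No treatment other than sorting is named in the labels. Both came from mice on a C57BL/6 strain background that also carries Foxp3DTRgfp, an allele that places a toxin receptor and green fluorescent protein under Foxp3. Cells of both genotypes were sorted as CD4+ and CD25+ with high CD44, an activated surface phenotype and green fluorescence. The control library is titled wild type, but its genotype label reads Nrn1+/-, so the contrast is heterozygous against null. The sources used here do not give age, sex or how many animals went into a library.

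Treg cells hold back other immune cells in part by removing ATP that damaged or activated cells release and by turning it into adenosine. The ectonucleotidase CD39 (Entpd1) strips phosphates from ATP and ADP to leave AMP, and CD73 (Nt5e) converts AMP to adenosine. Adenosine then acts on receptors that raise cyclic AMP in T cells, and it is cleared by uptake into cells and by enzymes that deaminate or phosphorylate it.

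The members that act as enzymes at the cell surface differed in direction from those of uptake and intracellular removal. The 4 genes of surface enzymes, Nt5e, Entpd1, Enpp1 and Dpp4, were all lower in the null library, with a median log2 ratio of -0.73. The 4 genes of uptake and intracellular removal, Slc29a1, Ada, Adk and Pnp, were all higher, with a median of 0.48. Both adenosine receptor genes lay within 1.1-fold of their heterozygous level. Summed levels were 172 and 99.8 FPKM for the surface enzymes in the heterozygous and null libraries, and 139 and 191 FPKM for the uptake and intracellular genes. By the roles listed earlier, with Dpp4 placed among the 4 clearance genes beside Ada, Adk and Pnp, that group was mixed, with 1 lower and 3 higher and a median of 0.44, while the 3 ectoenzymes were all lower. The grouping with Dpp4 among the surface enzymes was made after the values were seen, and the members were selected on values of both libraries, the same FPKM ratios reported here, so it is a description and not a test. Outside the members such genes went both ways. Of uptake carriers, Slc28a2 was 1.49-fold lower and Slc29a2 1.67-fold higher, and of surface phosphatases, Alpl was 1.33-fold higher and Acpp 1.37-fold lower. Over all 10695 protein-coding genes tested the median log2 ratio was 0.04, with 45.7% lower and 54.3% higher.

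Levels are in FPKM (sequenced fragments divided by transcript length and by library depth), and can be compared between genes. The log2 ratio is log2((Nrn1-/- + 1)/(Nrn1+/- + 1)) with 1 FPKM added to each level, which understates the difference of low genes, while folds quoted beside levels are plain FPKM ratios. A gene was tested at a mean of at least 1 FPKM, which all 10 members reached, and counted as past the threshold at 1.5-fold on the log2 scale. With 1 library per genotype there is no replicate check and no p-value. The intervals given are 95% exact binomial or Poisson intervals from estimated fragment numbers and cover counting error only. In a bulk library fewer cells that carry a transcript and less of it per cell cannot be told apart.

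Among the members, 3 were at least 1.5-fold lower (Nt5e, Entpd1 and Dpp4) and 1 at least 1.5-fold higher (Ada). Of all protein-coding genes tested, 3.69% were that much lower and 7.01% that much higher. The balance of these calls depends on how the libraries are scaled to each other. Lower genes made up 34.5% of the protein-coding genes past the threshold as deposited, 63.2% after rescaling protein-coding rows to a sum of 1000000 FPKM in both libraries, and 85.7% after rescaling all rows. Those rescalings moved the log2 ratios of all genes tested by a median of -0.12 and -0.28. The 3 lower members stayed past the threshold under all 10 other settings tried, and Ada under 9 of them. For the 3 lower members this is no check of robustness. Filters and the choice of row left their ratios unchanged, and every other setting moved them further down. The median over all 10 members was 0.03, close to that of all protein-coding genes.

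**Figure D1:**
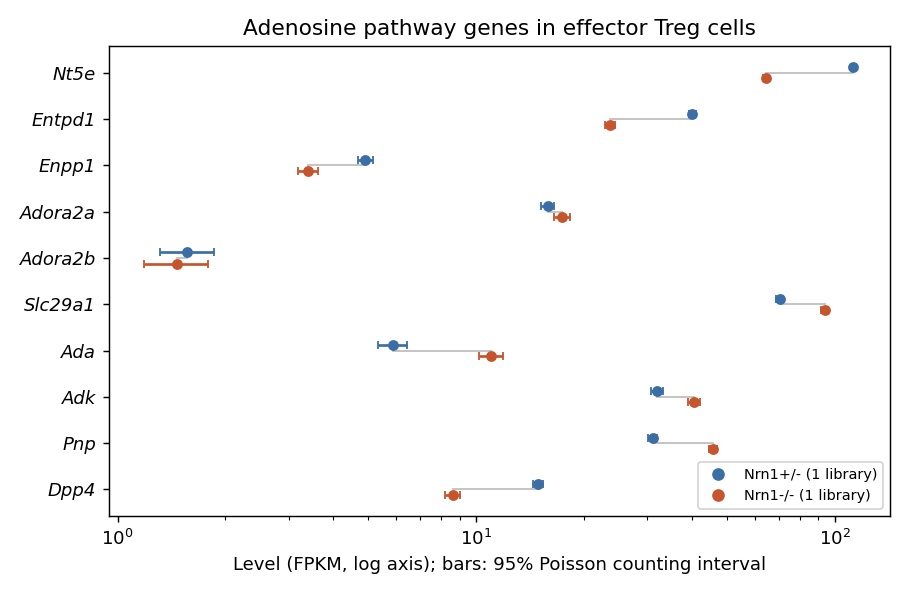
Levels of the 10 members in FPKM on a log axis, 1 point per library, with bars for the 95% Poisson counting interval. Nt5e, Entpd1, Enpp1 and Dpp4 sit to the left in the null library, while Slc29a1, Ada, Adk and Pnp sit to the right. The bars of both libraries overlap for Adora2b and only just meet for Adora2a. The counting interval of the Adora2a ratio was 1.03 to 1.17.

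Upstream sequence is shown for Entpd1, Dpp4 and Ada, the members past the threshold whose windows lie before every annotated first exon of that start site. Windows are the 250 bases before the RefSeq gene start, read 5′ to 3′ on the strand of the gene (GRCm38.p6). The letters searched were TGACGTCA (cyclic AMP response element), GGGCGG (GC box), ACGTG (hypoxia response core), TGANTCA (AP-1 site), TGTTTAC (forkhead site), CCAAT (bound by NF-Y) and TATAAA (core promoter element), on both strands, and capitals mark each match. Entpd1 has 2 RefSeq starts with windows at chr19:40612116-40612365 and chr19:40659520-40659769 (plus strand). The windows of Dpp4 and Ada are chr2:62412232-62412481 and chr2:163750240-163750489 (minus strand).
Entpd1 first start: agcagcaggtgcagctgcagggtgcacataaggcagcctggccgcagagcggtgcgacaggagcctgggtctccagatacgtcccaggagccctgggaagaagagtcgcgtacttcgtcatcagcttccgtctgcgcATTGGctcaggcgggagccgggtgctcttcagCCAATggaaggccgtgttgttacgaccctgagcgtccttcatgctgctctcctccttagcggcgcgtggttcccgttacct
Entpd1 second start: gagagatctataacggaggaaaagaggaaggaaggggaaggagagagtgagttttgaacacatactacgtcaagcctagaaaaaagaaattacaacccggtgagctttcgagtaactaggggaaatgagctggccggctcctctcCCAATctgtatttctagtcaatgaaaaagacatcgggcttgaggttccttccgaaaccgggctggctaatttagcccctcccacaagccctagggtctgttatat
Dpp4: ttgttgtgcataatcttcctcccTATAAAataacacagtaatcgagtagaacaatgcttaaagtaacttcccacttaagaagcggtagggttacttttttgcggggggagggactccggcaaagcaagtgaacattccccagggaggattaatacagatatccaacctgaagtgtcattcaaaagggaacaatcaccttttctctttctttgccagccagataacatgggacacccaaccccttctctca
Ada: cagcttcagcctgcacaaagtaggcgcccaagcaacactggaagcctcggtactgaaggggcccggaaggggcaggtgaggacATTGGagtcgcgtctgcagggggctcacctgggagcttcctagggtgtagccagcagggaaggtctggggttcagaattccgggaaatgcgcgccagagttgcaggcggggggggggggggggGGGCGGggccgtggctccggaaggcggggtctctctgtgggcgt

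The windows did not look alike. Dpp4 had a TATAAA match, a GC content of 43.6% and 4 CpG dinucleotides. That match lay 227 to 222 bases before the start, near the far end of the window, so it does not show a TATA promoter. The first Entpd1 window held 2 CCAAT matches at 62.4% GC with 18 CpG, and the second start held 1 at 47.2% GC with 8 CpG. Ada had a GC box and a CCAAT match at 67.2% GC with 14 CpG. The Nt5e window (chr9:88327359-88327608) lies inside the first exon of the GENCODE M21 gene model, so its letters are not shown. It held 4 GC box matches that overlap in pairs, with 72.0% GC and 21 CpG. Over 32851 windows of the same length, TATAAA occurred in 12.4%, CCAAT in 33.8% and the GC box in 32.7%, and the median window had 52.4% GC and 6 CpG. The cyclic AMP response element, in 1.55% of windows, the AP-1 site (6.75%) and the forkhead site (3.17%) had no match in any member's window. That says only that these letters are not in these windows. Windows were found for 9 members, all but Adora2a. Which start the cells used cannot be read from gene-level values.

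Nt5e (ENSMUSG00000032420.7, GRCm38 chromosome 9, 88327197 to 88372092, plus strand, 1 coding transcript) encodes CD73, the enzyme that makes adenosine from AMP at the cell surface. It stood at 113 FPKM in the heterozygous library and 64.2 FPKM in the null library. It was the highest of the 10 members in the first library and the second highest, after Slc29a1, in the other. The level was 1.75-fold lower (95% counting interval 1.71 to 1.79, from an estimated 22182 and 9726 fragments), a log2 ratio of -0.80. That placed it at rank 96 from the lowest of the 10695 protein-coding genes tested.

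Entpd1 (ENSMUSG00000048120.15, chromosome 19, 40612366 to 40741602, plus strand, 4 coding transcripts) encodes CD39, which supplies CD73 with AMP. Its level was 40.1 FPKM with a copy of Nrn1 and 23.6 FPKM without, 1.70-fold lower (counting interval 1.64 to 1.77). The log2 ratio was -0.74, at rank 150 from the lowest. CD39 and CD73 transcripts therefore kept nearly the same proportion: Nt5e was 2.80 times Entpd1 in the heterozygous library and 2.72 times in the null library. Such a proportion within a library does not depend on scaling between libraries.

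Enpp1 (chromosome 10, 24637914 to 24712159, minus strand) encodes a pyrophosphatase of the cell surface that cuts ATP directly to AMP. It was 4.91 FPKM in the heterozygous library and 3.40 FPKM in the null library, 1.44-fold lower (counting interval 1.33 to 1.57). On the log2 scale this was -0.43, inside the threshold. It passed under 1 of the 9 settings in which it was tested, the rescaling over all rows, where it reached -0.70.

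Dpp4 (ENSMUSG00000035000.8, chromosome 2, 62330073 to 62412231, minus strand) encodes CD26, a surface peptidase that in human cells also holds adenosine deaminase at the membrane. It was 14.9 FPKM in the heterozygous library and 8.62 FPKM in the null library. The level was 1.73-fold lower (counting interval 1.63 to 1.83), with a log2 ratio of -0.72 at rank 165 from the lowest. The antisense gene Gm13561 overlaps it, and the NEBNext Ultra kit named in the labels is not stated to keep strand, so their reads may not be separable. Gm13561 was listed at 0.485 and 0.340 FPKM. Nt5e, Entpd1 and Dpp4 thus lay within a narrow band of folds, from 1.70 to 1.75, with overlapping counting intervals.

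Ada (ENSMUSG00000017697.3, chromosome 2, 163726584 to 163750239, minus strand, 1 coding transcript) encodes adenosine deaminase, which turns adenosine into inosine. It ran the other way, at 5.85 FPKM in the heterozygous library and 11.0 FPKM in the null library, 1.89-fold higher (counting interval 1.67 to 2.14). The log2 ratio of 0.81 stood at rank 289 from the highest. At a sum of 1000000 over all rows it was 0.57, just under the threshold of 0.58. Measured within each library, Nt5e was 19.2 times Ada with a copy of Nrn1 and 5.82 times Ada without, a proportion 3.31-fold lower. For Entpd1 the proportion went from 6.86 to 2.14 and for Dpp4 from 2.54 to 0.781.

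Pnp encodes purine nucleoside phosphorylase, which takes inosine on to hypoxanthine. It was at 31.1 FPKM in the heterozygous library and 45.8 FPKM in the null library, 1.48-fold higher (counting interval 1.42 to 1.54), and its log2 ratio of 0.55 stayed under the threshold. Its row carries ENSMUSG00000021871.16, an identifier that GENCODE M21 gives to the overlapping model Gm49342, while M21 lists Pnp under ENSMUSG00000115338 (chromosome 14, 50931082 to 50965237, plus strand). The counting interval used the longest coding transcript of the M21 Pnp model, 2942 bases. The deposited row starts at 50944302, so that length may not be the one behind its FPKM. The tandem copy Pnp2 lies in the same locus. The coding sequences, read as the longest open reading frames in GENCODE M21 transcripts, matched at 97.9% of 870 aligned bases, with an identical run of 292 bases. The opening aligned stretch of 90 bases, shown because the copies are hard to tell apart in such stretches, has 1 mismatch, in capitals.
Pnp: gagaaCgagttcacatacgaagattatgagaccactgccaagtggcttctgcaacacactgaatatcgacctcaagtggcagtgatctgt
Pnp2: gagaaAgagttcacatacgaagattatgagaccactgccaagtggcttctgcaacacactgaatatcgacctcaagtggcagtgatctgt

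Pnp2 was listed at 0.923 and 1.37 FPKM, 1.49-fold higher. The sources used here do not say how reads were shared between the copies, so the split is uncertain, but Pnp held most of the signal in both libraries.

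Adk and Slc29a1 showed smaller differences in the same direction as Pnp. Adk (chromosome 14, 21052574 to 21448569) encodes adenosine kinase, which returns adenosine to AMP inside the cell. It was 31.9 FPKM in the heterozygous library and 40.6 FPKM in the null library, 1.27-fold higher (counting interval 1.21 to 1.35). Slc29a1 (chromosome 17, 45585200 to 45599606) encodes the equilibrative transporter ENT1, which lets adenosine cross the membrane. It went from 70.3 to 93.8 FPKM, 1.33-fold higher (counting interval 1.29 to 1.38), and replaced Nt5e as the highest member. Nt5e was 1.60 times Slc29a1 in the heterozygous library and 0.685 times in the null library. The antisense gene Gm17080 overlaps Slc29a1 and was listed at 2.63 and 3.97 FPKM. Adk and Slc29a1 had log2 ratios of 0.06 and 0.12 at a sum of 1000000 over all rows, still above 0.

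The adenosine receptors had the smallest ratios among the members as deposited, but not after rescaling over all rows. Adora2a (ENSMUSG00000020178.5, chromosome 10, 75316877 to 75334784) encodes the high-affinity receptor for adenosine and was at 15.8 and 17.4 FPKM in the heterozygous and null libraries. That was 1.10-fold higher (counting interval 1.03 to 1.17). The direction turned with 1 of 10 settings, the rescaling over all rows, where its log2 ratio went from 0.13 to -0.15, and that of Adora2b from -0.06 to -0.26. Adora2b (chromosome 11, 62248984 to 62266453), the low-affinity receptor, was the lowest member in both libraries at 1.57 and 1.47 FPKM. The counting interval of its ratio ran from 0.715 to 1.23, so no difference was detectable at this depth. The remaining receptor genes, Adora1 and Adora3, were under 1 FPKM on average. Adora2a was 10.1 times Adora2b in the heterozygous library and 11.9 times in the null library.

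**Figure D2:**
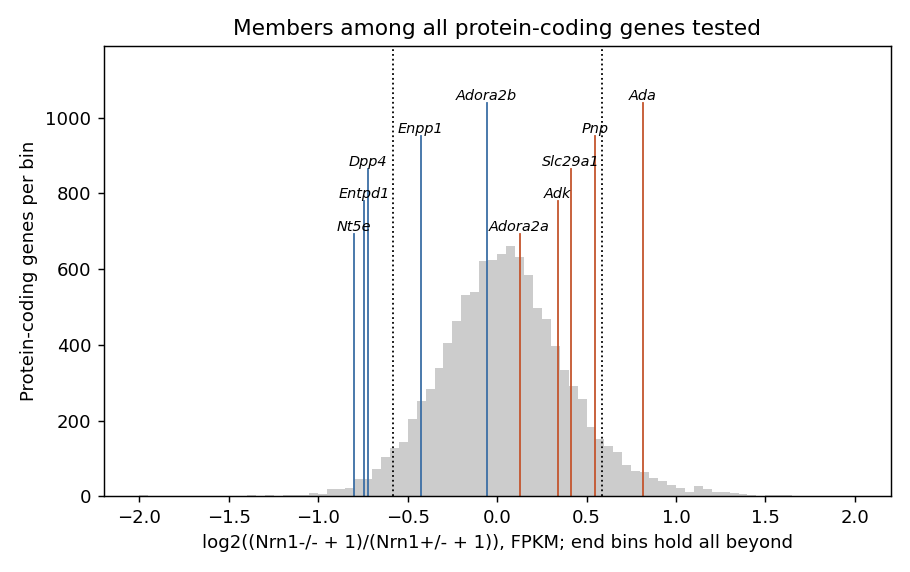
Histogram of log2 ratios over the 10695 protein-coding genes tested (y axis: genes per bin), with a labelled line for each member and dotted lines at 1.5-fold. Nt5e (-0.80), Entpd1 (-0.74) and Dpp4 (-0.72) lie together in the left tail and Ada (0.81) in the right.

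**Figure D3:**
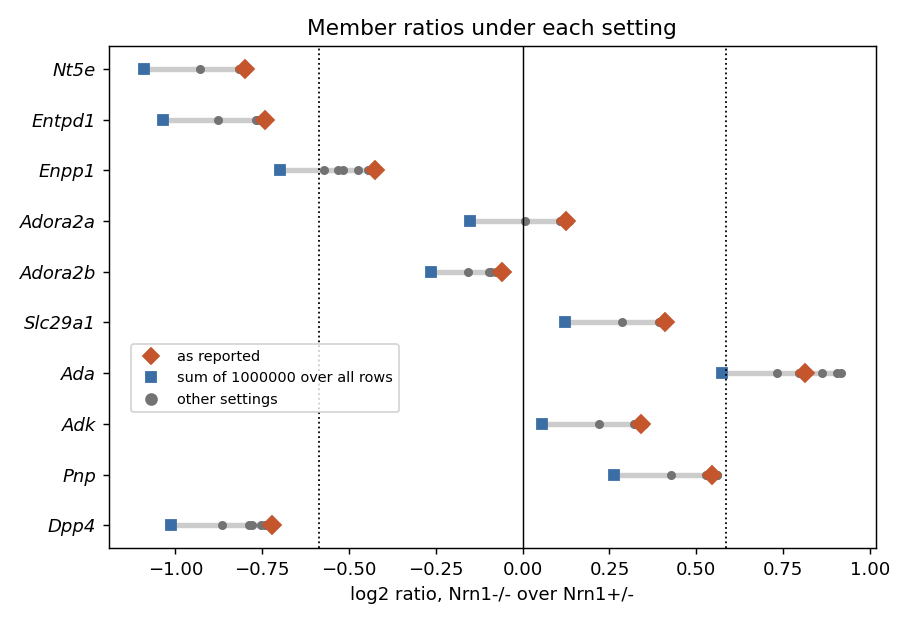
Log2 ratios of the members (x axis) as reported (diamonds), after rescaling to a sum of 1000000 over all rows (squares) and under the other settings (circles), with dotted lines at 1.5-fold. Nt5e, Entpd1 and Dpp4 stay left of the threshold throughout, and Adora2a is the one member with points on both sides of 0.

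The order of the members changed between libraries. In the heterozygous library it ran Nt5e, Slc29a1, Entpd1, Adk, Pnp, Adora2a, Dpp4, Ada, Enpp1 and Adora2b. In the null library Slc29a1 came first and Nt5e second, Pnp and Adk passed Entpd1, and Ada passed Dpp4. Adk (31.9 FPKM) and Pnp (31.1 FPKM) were neighbours in the heterozygous library whose counting intervals overlapped.

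Transcripts near Nt5e and Entpd1 in both level and ratio were found by distance over the 2 libraries on the log2(FPKM + 1) scale. The 3 protein-coding genes nearest to Nt5e were Uba7 (114 and 64.2 FPKM), Pnrc1 (112 and 65.3 FPKM) and Gbp7 (112 and 66.6 FPKM). Those nearest to Entpd1 were Xaf1 (39.2 and 23.2 FPKM), Phf1 (40.3 and 22.8 FPKM) and Snap23 (39.2 and 22.7 FPKM). With 2 libraries such likeness rests on 2 values per gene.

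Against the Treg factor Foxp3, at 257 FPKM in the heterozygous library and 195 FPKM in the null library, Nt5e, Entpd1 and Dpp4 were still lower. Nt5e was 0.438 times Foxp3 with a copy of Nrn1 and 0.330 times without, 1.33-fold lower. Entpd1 per Foxp3 was 1.29-fold lower and Dpp4 per Foxp3 1.31-fold lower. Enpp1 per Foxp3 was 1.10-fold lower, while Ada per Foxp3 was 2.49-fold higher. Foxp3 itself was 1.32-fold lower, and the 8 Treg markers listed ranged from 1.07-fold (Il2ra) to 1.51-fold (Nrp1) lower. A Treg reference such as Nrp1 or Lrrc32 (1.49-fold lower) would give smaller folds for Nt5e, Entpd1 and Dpp4, and Il2ra larger ones. Per Cd4 transcript, at 161 and 155 FPKM, the folds were 1.68 lower for Nt5e, 1.63 lower for Entpd1 and 1.65 lower for Dpp4. Cd4 differed least of the 6 T cell markers listed. Of these 5 were lower in the null library, Cd3g most at 1.35-fold, and Cd5 was 1.15-fold higher. A reference such as Cd3g would therefore give smaller folds for these members. The targeted gene Nrn1 stood at 66.5 and 4.62 FPKM, which follows the labels.

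Marker genes of other states moved alongside these members. All 8 genes of dividing cells were at least 1.5-fold higher in the null library, with a summed level of 359 against 874 FPKM. Over all protein-coding genes tested, 7.01% were that much higher, 3.69% that much lower, and 45.7% lower by any amount. Of 7 naive T cell genes 6 were lower, 3 of them at least 1.5-fold, with sums of 608 and 455 FPKM. All 8 Treg markers were present, from 26.5 to 608 FPKM in the heterozygous library, and all were lower in the null library, none by 1.5-fold on the log2 scale (Nrp1, at 26.5 and 17.6 FPKM, by 1.51-fold without the added 1 FPKM), with sums of 2300 and 1889 FPKM. Of 10 B cell markers, only 1 of which (Cd79b) reached the mean of 1 FPKM needed to be tested, 9 were listed higher, with sums of 7.53 and 10.01 FPKM, single genes from 0.0434 to 4.85 FPKM in the heterozygous library and from 0.0878 to 5.14 FPKM in the null library. Macrophage and monocyte markers summed to 26.5 and 19.3 FPKM, nearly all from Fcer1g and Cd68, while Csf1r was at 0.0260 and 0 FPKM. Of the dendritic cell genes, Siglech and Clec9a were at 0 in both libraries and Flt3 and Xcr1 under 1 FPKM. Zbtb46 was at 2.58 and 1.89 FPKM. Among CD8 T cell genes Cd8b1 was at 4.65 and 3.45 FPKM and Cd8a at 0.276 and 0.484 FPKM. The natural killer cell gene Ncr1 was at 1.45 and 0.810 FPKM, and the others of its list were under 1 FPKM. What part any of these had in the ratios of the members was not tested.

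Beyond the members, 91 further genes of ATP, adenosine and cyclic AMP handling were listed, of which 55 were tested. Of these 3 were at least 1.5-fold lower (5.45%) and 3 at least 1.5-fold higher (5.45%), beside 3.69% and 7.01% of protein-coding genes. The lower 3 include P2ry10, which the list held for its name. Their median log2 ratio was -0.003.

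Among ectoenzymes of AMP and NAD, the other tested genes were inside the threshold. Alpl, a phosphatase that can also form adenosine, was at 4.87 and 6.46 FPKM. Acpp, an acid phosphatase with the same ability, was at 2.64 and 1.93 FPKM, and Cd38, which consumes NAD, at 2.78 and 2.36 FPKM. Art2b, which ADP-ribosylates surface proteins, was at 5.31 and 5.98 FPKM. In the heterozygous library Nt5e was thus far above the phosphatase genes Alpl and Acpp, and it remained so in the null library. Of the NTPDase relatives that work inside the secretory pathway or lysosome, Entpd5, Entpd6 and Entpd7 differed by at most 1.12-fold.

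Nucleoside transporters went both ways. Slc28a2, a concentrative sodium-coupled carrier, was at 24.4 and 16.4 FPKM, 1.49-fold lower. Slc29a2, the equilibrative carrier ENT2, was at 2.39 and 4.0 FPKM, 1.67-fold higher without the added 1 FPKM but 0.56 on the log2 scale. Slc29a3, a carrier of inner membranes, had 0.946 times the heterozygous level in the null library.

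In the list of purine salvage enzymes 19 genes were tested, with 1 at least 1.5-fold lower and 3 at least 1.5-fold higher. Over all protein-coding genes tested the shares were 3.69% and 7.01%. The lower gene was the member Dpp4, a surface peptidase that the list held and no salvage enzyme. The higher genes beside Ada were Ahcy and Aprt. Ahcy, which splits S-adenosylhomocysteine into adenosine and homocysteine, was at 60.8 and 124 FPKM (2.04-fold). Aprt, which salvages adenine, was at 153 and 233 FPKM (1.52-fold). Mtap, which releases adenine, was at 26.3 and 37.1 FPKM, and Ampd2, an AMP deaminase, at 27.7 and 39.0 FPKM. Ahcyl2, a relative of Ahcy, was lower at 122 and 85.0 FPKM, and Xdh, xanthine dehydrogenase, at 9.57 and 6.42 FPKM. Nt5c, a cytosolic nucleotidase, was at 138 and 146 FPKM, and Hprt, which salvages hypoxanthine, at 111 and 128 FPKM.

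In the list of P2 receptor and ATP release genes the one past the threshold was P2ry10, at 131 and 74.2 FPKM (1.77-fold lower). It carries a P2Y name but encodes a receptor for lysophospholipids, so it is no nucleotide receptor. None of the nucleotide receptor or release genes tested passed. P2rx7, an ATP-gated channel whose opening can kill T cells, was at 23.8 and 16.8 FPKM, and P2rx4, a related channel, at 16.8 and 12.6 FPKM. Panx1, through which cells release ATP, was at 34.1 and 34.9 FPKM.

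Of 24 tested genes of the cyclic AMP relay downstream of the receptors, 2 were at least 1.5-fold lower and 1 at least 1.5-fold higher. Over all protein-coding genes tested the shares were 3.69% and 7.01%, so counts this small say little about the relay. The lower ones, Rapgef3 (2.60 and 1.36 FPKM) and Rapgef4 (1.90 and 0.818 FPKM), encode the cyclic AMP sensors EPAC1 and EPAC2. Prkar2a, a regulatory subunit of protein kinase A, was higher at 7.09 and 12.2 FPKM. Gnas, the stimulatory G protein used by the product of Adora2a, was at 267 and 312 FPKM, Prkar1a at 150 and 149 FPKM, and Crem, a cyclic AMP responsive factor, at 180 and 152 FPKM. Adcy7, the adenylyl cyclase gene with the highest level of those tested, was at 29.4 and 28.7 FPKM.

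**Figure D4:**
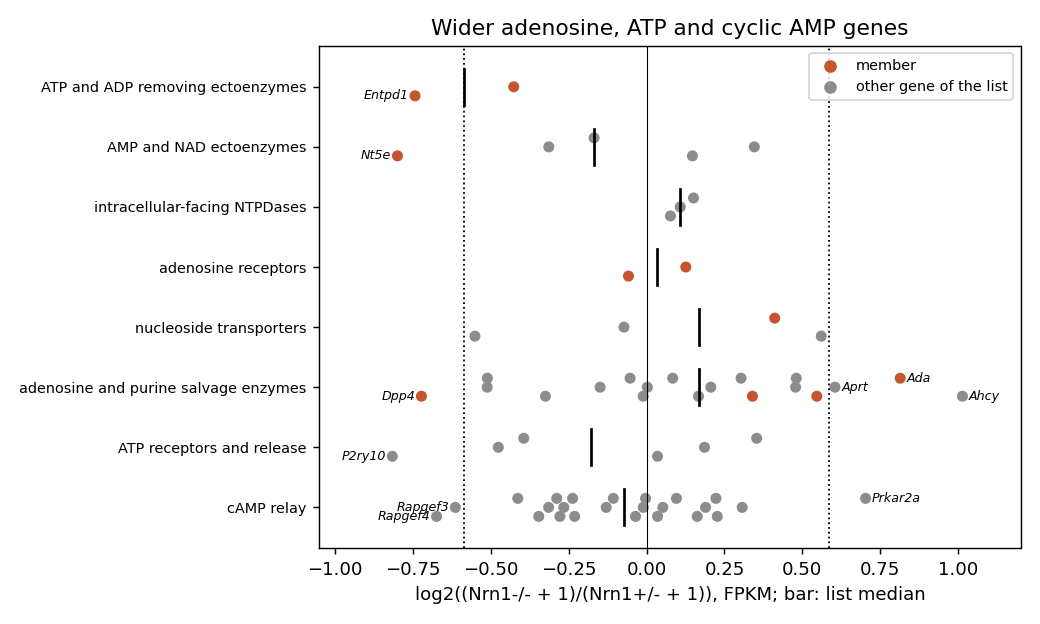
Log2 ratios (x axis) of tested genes in 8 lists of ATP, adenosine and cyclic AMP handling (y axis), with members in orange, list medians as bars and dotted lines at 1.5-fold. Named genes are those past the threshold: Nt5e, Entpd1, Dpp4, P2ry10, Rapgef3 and Rapgef4 on the left, Ada, Aprt, Ahcy and Prkar2a on the right.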

How the data were processed

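Poly(A) RNA libraries of sorted cells were made with NEBNext Ultra kits, per the labels' protocols. The authors deposited FPKM per gene. The unit was read from the values and from Cuffnorm. Per the submitters' processing notes TopHat, Cuffdiff, FastQC and the builds mm10 and GRCm38 were used as well, with no versions or roles. The sources used here state no annotation, filter or scaling between libraries. The FPKM of all rows summed to 645876 (Nrn1+/-) and 790935 (Nrn1-/-), and of protein-coding rows to 593035 and 647545.

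Each file held 46511 rows, and rows that share a symbol were summed. GENCODE M21 (GRCm38) gave positions for 46000 identifiers. Depth was estimated in genes with 1 transcript: FPKM times length less 210 bases was a whole number of steps, within 0.1 step, for 94.5% of 2458 low values in the heterozygous library (a step being 0.0192 FPKM on 1 kb) and 93.9% of 2392 in the null library (0.025 FPKM). A step fixed beforehand would give 20% by chance. The steps and the 210 bases were chosen to make these shares largest, so 20% is not the chance level of that search. Fragments of a member were estimated from its longest coding transcript, which makes the intervals the narrowest possible. Without molecular identifiers, fragments are not independent molecules. If the authors scaled every library by its own depth, the steps imply 1.30 times as many fragments in the heterozygous library, and otherwise their ratio is one of scaling factors.

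The members, the lists and the motifs were chosen with earlier results of these data known. All members were named. From each list every gene past 1.5-fold and up to 4 others of high level were named, with some lower ones chosen after their values were seen. The calculation was tested on simulated data. Python 3.11.15, numpy 2.4.6, pandas 2.3.3, scipy 1.17.1 and Biopython 1.88 were used. In all 9 other settings of pseudocount, filter, scaling and repeated symbols were tried, and leaving out the pseudocount was added after seeing the data.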

Additional observations from a re-analysis of the deposited data

How the results depend on the processing

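The lower ratios of Nt5e, Entpd1 and Dpp4 kept their direction and stayed past 1.5-fold in all 10 alternatives, with log2 ratios from -1.09 to -0.80, from -1.03 to -0.74 and from -1.01 to -0.72. These alternatives were no check on them. The filters and the choice of row cannot alter these genes. A smaller or absent pseudocount enlarges any ratio, and each scaling moved the ratios of all genes down at the median. Rescaling each library to a sum of 1000000 over all rows left 0 members at least 1.5-fold higher instead of 1. It also moved the wider genes at least 1.5-fold lower from 3 to 12 and those higher from 3 to 1, with 15.5% of protein-coding genes lower and 2.58% higher under the same rescaling. Rescaling over protein-coding rows put 7 wider genes lower (protein-coding genes: 8.01% lower, 4.67% higher), and a minimum mean of 5 FPKM left 1. The shift of all genes by -0.28 and -0.12 under the rescalings, and the smaller number of genes under the stricter filter, follow from how these settings are built. No library could be left out, with 1 per genotype. No paired analysis was possible because each genotype has 1 library. Counting depth limits Adora2b most.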

Other observations

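Ccr7, a receptor for entry into lymph nodes, was at 149 FPKM in heterozygous and 120 FPKM in null cells. Klf2, a transcription factor of quiescent T cells, was at 75.7 and 47.4 FPKM. Pecam1, an adhesion molecule of endothelial and some blood cells, was at 34.6 and 24.6 FPKM, while the endothelial gene Cdh5 was at 0.00505 and 0.0199 FPKM.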
